A study of Homo sapiens with 6 samples.

Results

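The genes described here are 40 genes of mitosis, taken by symbol from the 60664 Ensembl genes of the count table: the cyclin B genes and the kinases and phosphatases of mitotic entry, the transcription factors FOXM1 and MYBL2, centromere and kinetochore genes, spindle checkpoint genes, the chromosomal passenger complex, partners of the anaphase-promoting complex with securin and separase, spindle assembly genes, cytokinesis genes and TOP2A. The rule names the genes by symbol, uses no measured value and leaves mitotic kinesins out. The 40 genes were, however, chosen with earlier results of these data known. RNA-seq was performed on U-2 OS cells, a human osteosarcoma line labelled as polyploid and of bone, with 3 biological replicates transfected with a control siRNA (siControl) and 3 transfected with siRNA against SFPQ (siSFPQ), an RNA- and DNA-binding protein of the nucleus. siRNA was used at 30 nM with a lipid reagent, and the time between transfection and RNA extraction was not given in the sources used here. The comparison asks how the transcriptome of SFPQ-depleted cells differs from that of control cells, and here how genes of cell division do.

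Cells divide their chromosomes in mitosis after cyclin B and its partner kinase have been switched on by CDC25 phosphatases and supported by Polo-like and Aurora kinases. Spindle microtubules attach to kinetochores, protein assemblies built on the centromere of each chromosome, and the spindle checkpoint holds the cell in metaphase while any kinetochore lacks an attachment. The anaphase-promoting complex with CDC20 then marks securin and cyclin B for destruction, separase cuts cohesin, and the central spindle directs cytokinesis. Most of these genes are transcribed late in the cell cycle, when FOXM1 and the MuvB complex with MYBL2 act on promoters that often carry a CHR element near the start and CCAAT boxes further upstream.

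Promoter sequences are shown first, because they are what a cell-cycle regulator of these genes would meet, and because their letters are set against the fold changes further on. RefSeq windows on GRCh38.p14, which reach from 250 bases before a start to 50 after it, were matched for 33 of the 40 genes. The letters TTTGAA or TTCGAA (CHR) and CCAAT were searched on both strands, the palindrome TTCGAA was counted once, and overlapping matches were each counted. Capitals mark these letters, on either strand, in the 130 bases before the RefSeq start, written 5′ to 3′ on the strand of the gene.

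CCNB2 at chr15:59105016-59105145 (plus strand) and CCNB1 at chr5:69167020-69167149 (plus strand) are the promoters of the cyclin B pair, of which CCNB2 fell and CCNB1 did not pass the test. PLK1 at chr16:23678759-23678888 (plus strand), CDCA8 at chr1:37692386-37692515 (plus strand) and HMMR at chr5:163460502-163460631 (plus strand) belong to genes that fell and carry CHR letters, and CDC20 at chr1:43358851-43358980 (plus strand) carries them in a gene that did not pass the test. CENPE at chr4:103198344-103198473 (minus strand) fell and has neither set of letters, and NEK2 at chr1:211675622-211675751 (minus strand), which rose, has CCAAT letters without CHR letters.
CCNB2: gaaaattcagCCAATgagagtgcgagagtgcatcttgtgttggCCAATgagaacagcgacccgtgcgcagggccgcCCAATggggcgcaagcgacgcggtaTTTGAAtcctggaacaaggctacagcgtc
CCNB1: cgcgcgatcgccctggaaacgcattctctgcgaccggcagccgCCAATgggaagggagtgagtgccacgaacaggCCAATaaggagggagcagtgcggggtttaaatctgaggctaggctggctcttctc
PLK1: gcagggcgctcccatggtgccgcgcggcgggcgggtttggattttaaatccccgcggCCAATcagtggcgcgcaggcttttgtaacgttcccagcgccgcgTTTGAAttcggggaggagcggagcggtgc
CDCA8: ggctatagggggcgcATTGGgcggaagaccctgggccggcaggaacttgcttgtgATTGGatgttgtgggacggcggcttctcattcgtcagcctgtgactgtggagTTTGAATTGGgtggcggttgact
HMMR: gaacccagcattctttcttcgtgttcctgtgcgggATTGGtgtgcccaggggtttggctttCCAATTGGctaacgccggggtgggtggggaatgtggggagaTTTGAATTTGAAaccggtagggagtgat
CDC20: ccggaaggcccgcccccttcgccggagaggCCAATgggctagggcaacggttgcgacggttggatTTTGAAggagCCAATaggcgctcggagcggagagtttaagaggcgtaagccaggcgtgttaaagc
CENPE: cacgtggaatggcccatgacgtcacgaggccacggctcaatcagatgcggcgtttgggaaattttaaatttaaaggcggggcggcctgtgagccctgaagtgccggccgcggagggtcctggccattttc
NEK2: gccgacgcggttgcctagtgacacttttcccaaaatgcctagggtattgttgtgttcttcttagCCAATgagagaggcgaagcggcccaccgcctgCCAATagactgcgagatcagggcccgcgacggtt

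In CDCA8 the CHR letters and a reversed CCAAT share bases, and in HMMR a forward and a reversed CCAAT overlap. The CHR letters stood in 23 of the 33 genes with a window (69.7%), against 5336 of 27305 genes with a window in RefSeq (19.5%). CCAAT stood in 25 of 33 (75.8%) against 39.7% of all genes, and both stood in 19 of 33 (57.6%) against 9.02%. Of the 23 genes with CHR letters, 21 had them within 50 bases of a start. A match describes letters and is not a bound site, and the windows of 2 genes, CENPI and AURKB, lay over 100 bases from the canonical Ensembl start, so that the lack of CHR letters in those windows says nothing of the promoter at that start.

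SFPQ, the targeted gene, had 22338, 23139 and 21753 counts with the control siRNA. With the siRNA against it 3140, 3863 and 3151 counts remained, and its log2 fold change was -2.73 (SE 0.050, edgeR adjusted p = 6.3e-30). Libraries held 46142855 to 47119203 counts in siControl and 43469321 to 45543610 in siSFPQ, so that 3 counts correspond to 0.0637 to 0.069 CPM (a gene's counts relative to a fixed library total). Of 10 osteoblast and osteosarcoma markers 7 had enough counts to be tested, of which 1 was higher, 3 lower and 3 did not pass. The higher one, BGLAP, had only 0, 0 and 1 counts in siControl and 5, 6 and 6 in siSFPQ. RUNX2, COL1A1 and SPARC were expressed, SPP1 was at 12.8 CPM, ALPL at 3.43 and COL1A2 at 0.96. SP7, IBSP and TWIST1 were at or near 0. Of 8 markers of other cell types only EPCAM exceeded 1 CPM (4.8 CPM), and of the 4 that were tested CDH5 was higher and PTPRC lower, both under 1 CPM.

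The mitotic genes were mostly lower in the SFPQ-depleted cells, by small amounts. Of the 40 genes, all of which had at least 10 counts over the libraries and were tested, 25 fell (62.5%) and 2 rose (5%), NEK2 and MAD1L1, and 13 did not pass an adjusted p under 0.05 (edgeR quasi-likelihood test, Benjamini-Hochberg over 29022 genes). Over all genes tested, 22.1% were called lower and 22.4% higher. Among genes with a mean of at least 1 CPM, which 38 of the 40 reached, 34.5% were lower and 30.1% higher, against 65.8% lower and 5.26% higher of those 38. The median log2 fold change (siSFPQ over siControl) was -0.18 over the 40 genes, 0.019 over all genes tested and -0.021 over genes of at least 1 CPM. All 3 siSFPQ libraries lay below all 3 siControl libraries in 27 of the genes and above them in 4, where 25.4% and 26.9% of all genes tested separated in this way. Among the 15641 genes of at least 1 CPM, 5768 separated downward and 5119 upward. Not 1 of the 40 reached the log2 fold change of 1.5 that the study used as its threshold, which 4.77% of genes tested passed downward and 5.54% upward. That threshold was passed, in either direction, by 926 of the 15641 genes of at least 1 CPM. CENPI alone fell by more than 1 on the log2 scale.

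A test against a fold of 1.2 rather than against 0 (glmTreat) kept 9 of the genes as lower and 1 as higher, where 13.3% of all genes tested were lower and 13.3% higher by it. No share over genes of at least 1 CPM was computed for this test, so 13.3% is not a share matched to the level of these genes. The lower genes were CENPI, SPC25, CDC25C, CENPE, MAD2L1, CENPA, DLGAP5, ANLN and CENPF, and the higher was MAD1L1. Scaled by library size alone, without TMM, 21 were lower and 5 higher, so that 80.8% of the calls were downward against 92.6% with TMM. The same change of scale moved the median of all genes tested from 0.019 to 0.083. In bulk RNA, fewer cells in G2 or mitosis and less RNA of these genes per cell cannot be told apart.

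**Figure D1:**
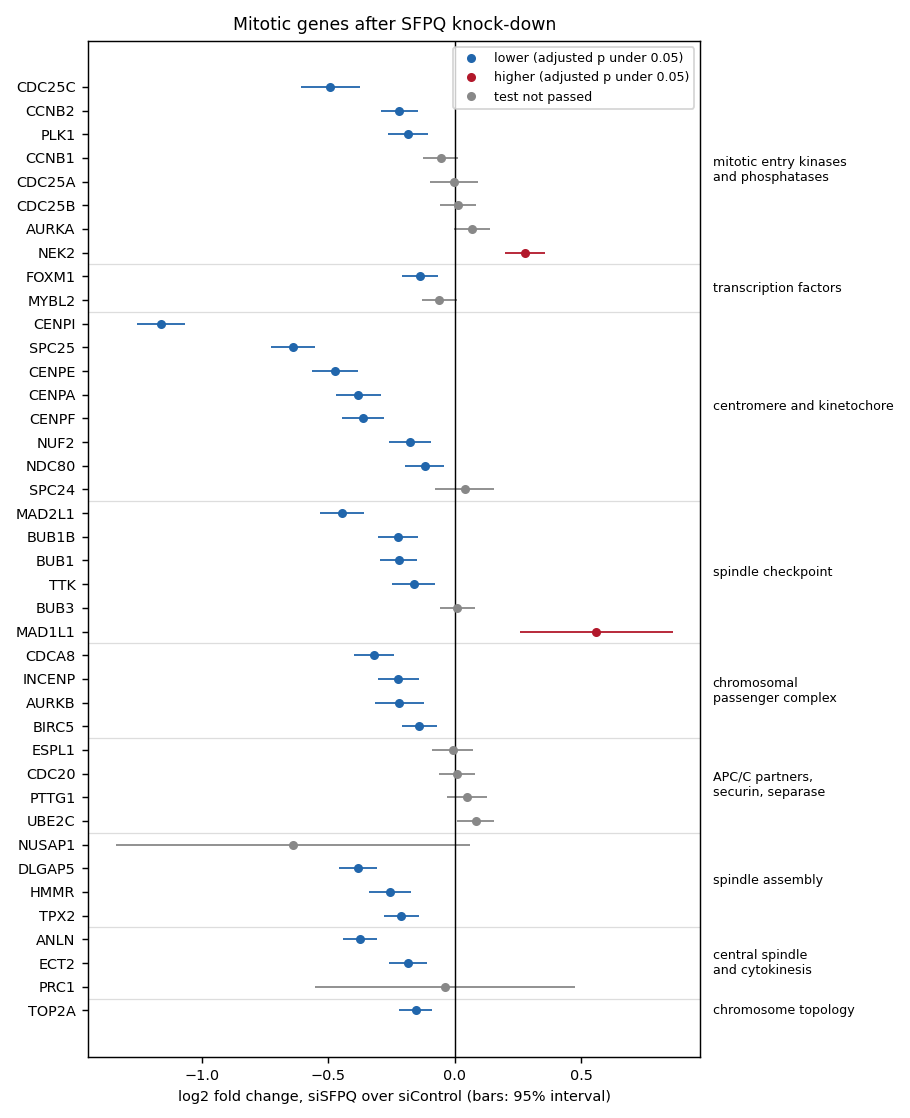
Log2 fold change of each of the 40 genes (x axis, siSFPQ over siControl) by role, with 95% intervals from edgeR, 3 libraries per group. Blue points are the 25 genes that fell, red points NEK2 and MAD1L1, and grey points the 13 that did not pass the test. CENPI stands farthest to the left at -1.16, and the 4 genes of the anaphase-promoting complex group sit around 0.

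The 40 genes together took 0.733%, 0.736% and 0.724% of all counts under control siRNA, and 0.671%, 0.685% and 0.669% after SFPQ knock-down. The median of the genes in each library, on the log2 scale relative to the siControl mean of each gene, was -0.013, 0.020 and -0.0090 in siControl and -0.17, -0.15 and -0.20 in siSFPQ. No siSFPQ library therefore reached the siControl range by either measure.

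Counts of MAD1L1, NUSAP1 and PRC1 are uncertain. MAD1L1 shares 43.2% of its exon bases with the read-through gene ENSG00000286192 on the same strand, NUSAP1 shares 81.4% with ENSG00000285920 and PRC1 57.6% with ENSG00000284946. Reads that lie in shared exons cannot be given to 1 gene, and these genes had levels of 15.1, 8.24 and 7.43 normalized counts per kb of exon in siControl, against at least 388 in each of the other 37. Without these 3 genes, 25 of 37 fell, 1 rose and the median log2 fold change was -0.18. FOXM1 (15.9% of exon bases with ITFG2), PLK1 (11.6% with ENSG00000261266) and CDC25C (8.8% with FAM53C) overlap genes on the opposite strand. So do PRC1 (34.3% with PRC1-AS1) and NUSAP1 (9.76% with OIP5). The libraries were stranded, but the strand setting of the counting was not given in the sources used here.

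Among the 8 genes of mitotic entry, 3 fell (CDC25C, CCNB2 and PLK1), NEK2 rose and 4 did not pass, with a median log2 fold change of -0.030. The share that fell, 37.5%, was near the 34.5% of all genes of at least 1 CPM. CDC25C (ENSG00000158402, chr5:138285269-138338355, minus strand), a phosphatase that activates cyclin B kinase at the onset of mitosis, had 1236, 1313 and 1325 normalized counts in siControl and 925, 910.0 and 916 in siSFPQ. Its log2 fold change was -0.49 (SE 0.059, edgeR adjusted p = 1.6e-08), the most negative of the group. The 3 siSFPQ values were all below the lowest siControl value.

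The other phosphatases of the family did not pass the test, and the sign of CDC25A turned between scalings. CDC25A (ENSG00000164045, chr3:48157146-48188417, minus strand), which also acts at G1/S, had 2029.9, 2153 and 2022 normalized counts in siControl and 2140.1, 2002 and 2047 in siSFPQ, and the log2 fold change was -0.0041 (edgeR adjusted p = 0.96), with a 95% interval of -0.10 to 0.091. CDC25B (ENSG00000101224, chr20:3786772-3806121, plus strand), which starts cyclin B activation at centrosomes, had 8646, 8457 and 8475 normalized counts in siControl and 8716, 8409 and 8650.2 in siSFPQ and a log2 fold change of 0.011 (edgeR adjusted p = 0.84), with an interval of -0.06 to 0.083. Groups overlapped for both. The log2 ratio of CDC25C to CDC25B was -2.72 ± 0.071 in siControl and -3.23 ± 0.017 in siSFPQ (SD, n = 3 each), a difference of -0.50 with an exact two-sided permutation p of 0.1, which is the smallest that 3 against 3 allows (0.12 adjusted over the 6 ratios computed). The ratio of CDC25A to CDC25B differed by -0.015 (exact permutation p = 0.8, n = 3 each). These ratios, and those of the cyclin B and Aurora genes below, reuse the counts already called gene by gene and are no separate support.

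Of the entry genes, CCNB1 had the highest level per kb of exon. CCNB1 (ENSG00000134057, chr5:69167135-69178245, plus strand) had 15755, 15711 and 16123 normalized counts in siControl and 15093, 15238 and 15447 in siSFPQ, and its log2 fold change of -0.056 (edgeR adjusted p = 0.21) did not pass the test although the groups did not overlap, and its sign turned by library size alone (0.0072). CCNB2 (ENSG00000157456, chr15:59105126-59125045, plus strand), which resides at the Golgi and partners the same kinase, had 6073, 6124 and 6234 normalized counts in siControl and 5283, 5229 and 5317 in siSFPQ and fell, with a log2 fold change of -0.22 (SE 0.038, edgeR adjusted p = 9.5e-06). Per kb of exon, CCNB1 was at 6519.9 and 6272 normalized counts in siControl and siSFPQ and CCNB2 at 2232 and 1917, so that CCNB1 stayed the more abundant of the pair. Within each library the log2 ratio of CCNB2 to CCNB1 was -1.38, -1.36 and -1.37 in siControl and -1.51, -1.54 and -1.54 in siSFPQ, a difference of -0.16 (exact permutation p = 0.1, n = 3 each, the smallest possible).

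Aurora kinases A and B are close relatives with separate places in mitosis, A at spindle poles and B at centromeres with the passenger complex. AURKA (ENSG00000087586, chr20:56369389-56392337, minus strand) had 6975, 6968 and 7201 normalized counts in siControl and 7417, 7275 and 7459.7 in siSFPQ. The siSFPQ values were all above the siControl values, but the log2 fold change of 0.067 (edgeR adjusted p = 0.15) passed only by library size alone (0.13, edgeR adjusted p = 0.0027). AURKB (ENSG00000178999, chr17:8204733-8210600, minus strand) had 2165, 2086 and 2207 normalized counts in siControl and 1890.5, 1768 and 1887 in siSFPQ and fell, with a log2 fold change of -0.22 (SE 0.049, edgeR adjusted p = 0.00034). The log2 ratio of AURKB to AURKA, taken from the same counts as these calls, differed by -0.29 between the groups (exact permutation p = 0.1, n = 3 each), with no overlap. PLK1, the Polo-like kinase of mitotic entry and exit, fell by 0.19 on the log2 scale from 4518 ± 143 to 3972 ± 77.3 (SD, n = 3 each) normalized counts.

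NEK2 (ENSG00000117650, chr1:211658657-211675630, minus strand), a kinase that separates centrosomes before mitosis, went the other way. It had 3370.4, 3496 and 3576 normalized counts in siControl and 4191, 4246 and 4214 in siSFPQ, so that every siSFPQ library was above every siControl library. The log2 fold change was 0.28 (SE 0.041, edgeR adjusted p = 6.8e-07), a fold of 1.21. Of the 37 genes other than MAD1L1, NUSAP1 and PRC1, it alone rose in the edgeR test as run. UBE2C rose too with filterByExpr, with the replicate block, with protein-coding genes only and by library size alone, and AURKA and PTTG1 by library size alone.

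**Figure D2:**
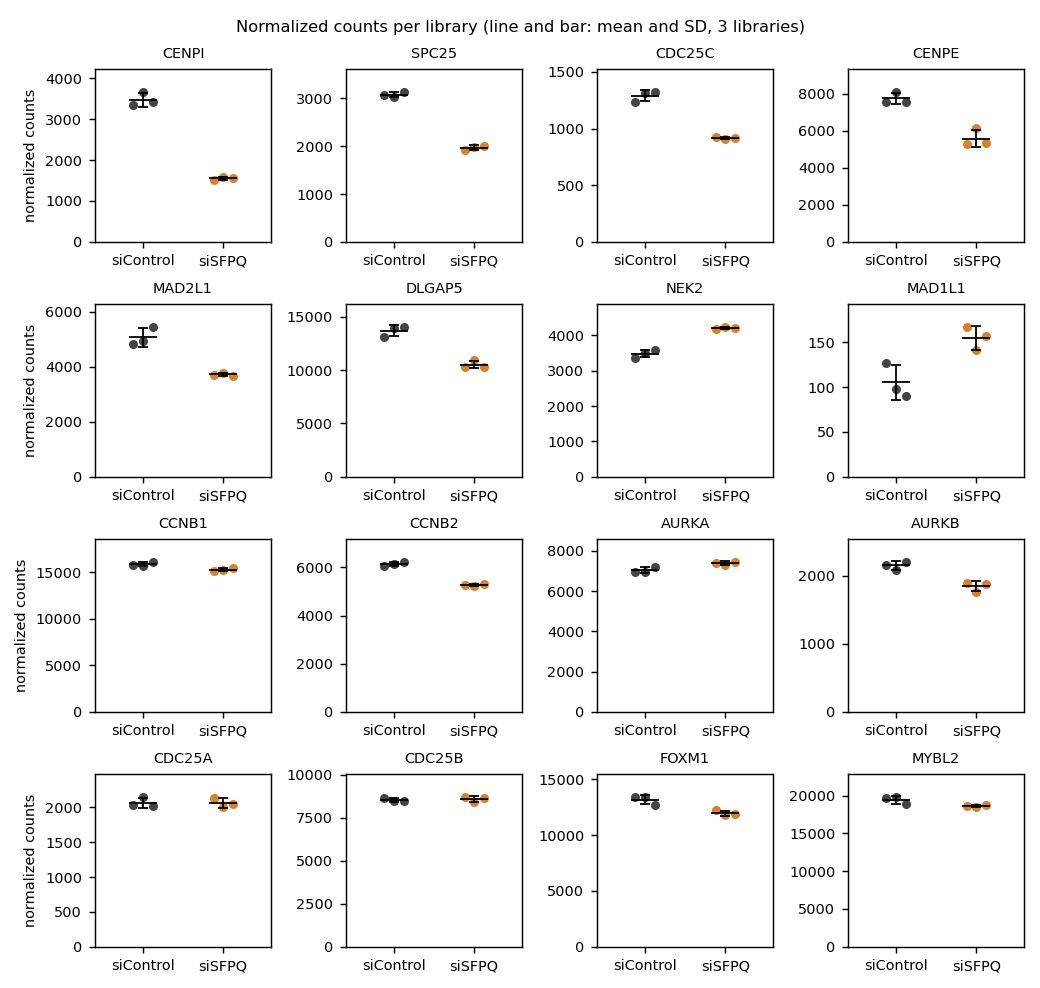
Normalized counts (y axis, from 0) of 16 named genes in each of the 6 libraries, siControl in grey and siSFPQ in orange, with the mean and SD of 3 libraries as a line and bar. CENPI falls from between 3345 and 3673 to between 1512 and 1595, while CDC25A and CDC25B overlap between the groups and NEK2 is higher in all siSFPQ libraries.

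Both transcription factors of the G2/M programme remained abundant. FOXM1 (ENSG00000111206, chr12:2857680-2877174, minus strand) had 13445, 13414 and 12713 normalized counts in siControl and 12237, 11834 and 11876 in siSFPQ, and its fall of 0.14 on the log2 scale passed the test (edgeR adjusted p = 0.0022). MYBL2 (ENSG00000101057, chr20:43667019-43716495, plus strand), the MYB protein that joins MuvB in S phase, had 19649.5, 19861 and 18837 normalized counts in siControl and 18598, 18505 and 18799 in siSFPQ; its log2 fold change of -0.062 (edgeR adjusted p = 0.16) did not pass, with no overlap between groups. By library size alone FOXM1 no longer passed (log2 fold change -0.076, edgeR adjusted p = 0.083).

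The centromere and kinetochore genes held the largest falls. Of 8, 7 fell (87.5%, beside 34.5% of all genes of at least 1 CPM) and SPC24 did not pass, with a median log2 fold change of -0.37. CENPI (ENSG00000102384, chrX:101098188-101166126, plus strand), a subunit of the inner kinetochore that helps to load the centromeric histone, had 3345, 3673 and 3422 normalized counts in siControl and 1512, 1595 and 1558 in siSFPQ. The mean went from 3480.2 ± 171 to 1555 ± 41.6 (SD, n = 3 each), a fold of 0.447 and a log2 fold change of -1.16 (SE 0.048, edgeR adjusted p = 2.7e-20). The highest siSFPQ value was below the lowest siControl value by more than the whole spread within either group.

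CENPE (ENSG00000138778, chr4:103105349-103198445, minus strand), the kinetochore motor that brings chromosomes to the spindle equator, had 7577, 8099.9 and 7563 normalized counts in siControl and 5285, 6126 and 5325 in siSFPQ, and its log2 fold change was -0.47 (SE 0.046, edgeR adjusted p = 1.3e-10). The second siSFPQ library was the highest of its group, and still below all siControl libraries. CENPF, a large kinetochore protein that marks G2 and mitosis, fell by 0.36 on the log2 scale from 22832 ± 1526 to 17747 ± 853 (SD, n = 3 each) normalized counts. CENPA, the centromeric histone H3 variant, fell by 0.38 from 3212 ± 135 to 2465 ± 97.2 (SD, n = 3 each). CENPA shares 7.08% of its exon bases with SLC35F6 on the same strand, whose log2 fold change was 0.32.

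The 4 subunits of the NDC80 complex, the rod that couples kinetochores to microtubules, differed among themselves. SPC25 (ENSG00000152253, chr2:168834132-168913371, minus strand) had 3068, 3027 and 3139 normalized counts in siControl and 1914, 1994 and 2012 in siSFPQ and fell, with a log2 fold change of -0.64 (SE 0.045, edgeR adjusted p = 4.6e-14). Its direct partner SPC24 had 1246, 1300.0 and 1461 normalized counts in siControl and 1394, 1326 and 1397 in siSFPQ, with overlapping groups and a log2 fold change of 0.039 (edgeR adjusted p = 0.65). NUF2 fell by 0.18 and NDC80 by 0.12 on the log2 scale; NDC80 no longer passed when siControl replicate 2, siSFPQ replicate 1 or siSFPQ replicate 3 was left out, with log2 fold changes of -0.097, -0.096 and -0.11, or by library size alone (-0.056). The log2 ratio of SPC25 to SPC24 was 1.21 ± 0.098 in siControl and 0.52 ± 0.066 in siSFPQ (SD, n = 3 each), a difference of -0.68, and that of NUF2 to NDC80 differed by -0.060, each with an exact permutation p of 0.1. These ratios were chosen after the values were seen. Per kb of exon the subunits were at 2228 and 2051 (NDC80), 1683 and 1079 (SPC25), 1374 and 1215 (NUF2) and 471 and 483 (SPC24) normalized counts in siControl and siSFPQ, so that SPC25 moved from above NUF2 to below it.

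In the spindle checkpoint, 4 of 6 genes fell (66.7%), MAD1L1 rose and BUB3 did not pass, with a median log2 fold change of -0.19. Of all genes of at least 1 CPM, 34.5% fell and 30.1% rose. MAD2L1 (ENSG00000164109, chr4:120055623-120066858, minus strand), the protein that binds and withholds CDC20, had 4809, 4939 and 5449 normalized counts in siControl and 3712, 3763 and 3676 in siSFPQ. Its log2 fold change was -0.45 (SE 0.044, edgeR adjusted p = 1.8e-10), the most negative of the group, and all siSFPQ values were below the lowest siControl value. BUB1 and BUB1B, kinase-fold proteins of the checkpoint, each fell by 0.22 on the log2 scale, from 8938 ± 53.7 to 7659 ± 261 (SD, n = 3 each) and from 4847 ± 62.9 to 4148 ± 178 (SD, n = 3 each) normalized counts. TTK, the kinase that starts the checkpoint at kinetochores, fell by 0.16, and did not pass by library size alone (edgeR adjusted p = 0.051). BUB1B shares 5.38% of its exon bases with PAK6 on the same strand. BUB3, their binding partner, had 11098, 10961 and 11187 normalized counts in siControl and 11334, 11013 and 11104 in siSFPQ, with overlapping groups.

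MAD1L1 (ENSG00000002822, chr7:1815793-2233243, minus strand), which carries MAD2L1 to the kinetochore, had 127, 98 and 90.2 normalized counts in siControl and 167, 141 and 157 in siSFPQ. The groups did not overlap and the log2 fold change was 0.56 (SE 0.15, edgeR adjusted p = 0.0033), but it rests on 90 to 162 counts per library of a gene whose exons are partly shared. The read-through gene took 0 to 1 counts in each library.

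All 4 genes of the chromosomal passenger complex fell with TMM scaling, and all but BIRC5 by library size alone (-0.078, edgeR adjusted p = 0.061). Their median log2 fold change was -0.22, and 34.5% of all genes of at least 1 CPM fell. CDCA8 (borealin), which with survivin places the complex on centromeres, fell most, by 0.32 on the log2 scale, from 4519.8 ± 83.6 to 3618 ± 127 (SD, n = 3 each) normalized counts. INCENP, the scaffold, fell by 0.22 from 5913 ± 289 to 5064 ± 179.6 (SD, n = 3 each), and AURKB, the kinase, by 0.22. BIRC5 (survivin) fell least, by 0.14, from 12573 ± 144 to 11403 ± 53.7 (SD, n = 3 each). In each of these genes all siSFPQ libraries were below all siControl libraries.

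The partners of the anaphase-promoting complex did not pass the test in either direction, although PTTG1 was higher by library size alone and UBE2C under several alternatives. CDC20, the activator that the checkpoint restrains, had 12620.1, 12634 and 12457 normalized counts in siControl and 12400.2, 12386 and 13144 in siSFPQ and a log2 fold change of 0.0084 (edgeR adjusted p = 0.88), with an interval of -0.063 to 0.08. UBE2C, its ubiquitin-conjugating enzyme, was highest at 0.082 (edgeR adjusted p = 0.079), with all siSFPQ libraries above siControl, and passed the test in 4 of 13 alternatives (filterByExpr, the replicate block, protein-coding genes only and library size alone). PTTG1 (securin) had a log2 fold change of 0.048 (edgeR adjusted p = 0.36) and ESPL1 (separase) one of -0.0096 (edgeR adjusted p = 0.88), the lowest of the group, both with overlapping groups. Of these 4 genes, 1 had an unadjusted p under 0.05 (UBE2C), and DESeq2 called 0.

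Spindle assembly genes fell in 3 of 4 cases, where 34.5% of all genes of at least 1 CPM fell. DLGAP5 (ENSG00000126787, chr14:55148112-55191608, minus strand), which stabilises kinetochore microtubules, had 13133, 13911 and 14052 normalized counts in siControl and 10302, 10925 and 10298 in siSFPQ and a log2 fold change of -0.38 (SE 0.038, edgeR adjusted p = 2.7e-10). HMMR, a microtubule-binding protein of the spindle, fell by 0.26 on the log2 scale from 3369 ± 83.4 to 2819.8 ± 89.7 (SD, n = 3 each), and TPX2, which activates Aurora A and nucleates microtubules, by 0.21 from 17165 ± 398 to 14816 ± 150.3 (SD, n = 3 each), the smallest change of the group. NUSAP1, a microtubule-bundling protein, had 36.1, 24 and 29.1 normalized counts in siControl and 25.8, 18.6 and 12.8 in siSFPQ; its log2 fold change of -0.64 (edgeR adjusted p = 0.15) did not pass and the groups overlapped.

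In cytokinesis, ANLN (anillin), a scaffold of the contractile ring, fell by 0.37 from 25735 ± 152 to 19851 ± 413 (SD, n = 3 each) normalized counts, and ECT2, an exchange factor that acts at the cleavage site, by 0.18 from 7077 ± 141 to 6226 ± 163 (SD, n = 3 each). PRC1, which bundles central spindle microtubules, was at 36 to 49 counts per library in siControl and 38 to 44 in siSFPQ and did not pass. The read-through gene ENSG00000284946, which shares exons with PRC1, had more, at 257 to 352 counts in siControl and 272 to 320 in siSFPQ. Its log2 fold change was 0.0086 (edgeR adjusted p = 0.96). TOP2A, the topoisomerase that untangles sister chromatids, had the highest level of the 40 per kb of exon, at 7986 and 7169 normalized counts per kb in siControl and siSFPQ, and fell by 0.16 on the log2 scale, from 50904 ± 835 to 45696 ± 835 (SD, n = 3 each) normalized counts.

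The genes that fell more were, as a description, longer genes. The span was taken from gene start to gene end over all annotated transcripts, introns included. It can therefore begin far before the canonical Ensembl start. CENPA begins at 26764289 with its canonical start at 26786056, and NUF2 at 163266576 with its canonical start at 163321954. A split by the canonical transcript was not made. In the 20 longer genes (31272 to 417451 bases) 16 fell, with a median of -0.24, and in the 20 shorter (4223 to 29590 bases) 9 fell, with a median of -0.047. Genes of at least 1 CPM split at the same span of 30431 bases were lower in 45.6% of the longer ones (median -0.10) and in 23.8% of the shorter ones (median 0.048). CENPI, SPC25, CENPE and CDC25C, with the largest falls that passed, are all above that span, while MAD2L1 at 11236 bases and CDCA8 at 17239 fell and are below it. The part of gene span in the falls was not tested.

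**Figure D3:**
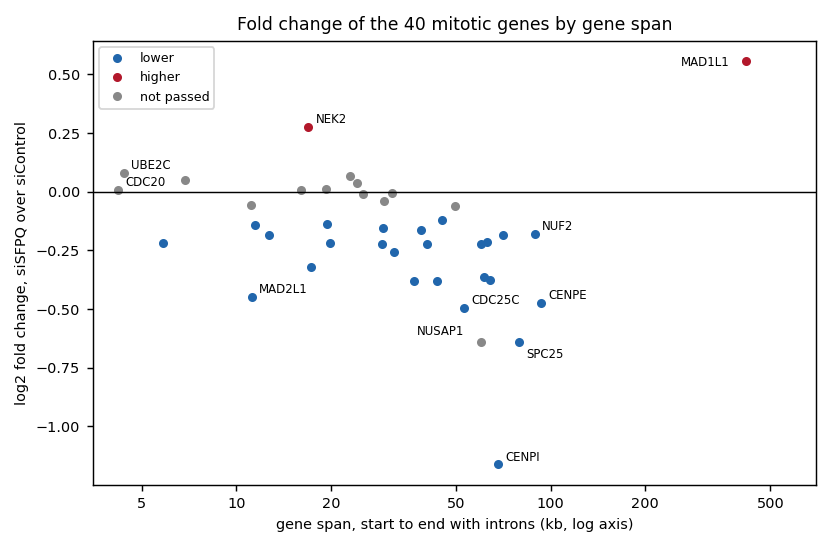
Log2 fold change (y axis, siSFPQ over siControl) of each of the 40 genes against its span in kb (x axis, log scale), coloured by the test. Points of CENPI, SPC25, CENPE and CDC25C lie low at spans over 50 kb, points of CDC20 and UBE2C lie near 0 at under 5 kb, and MAD1L1 stands apart at 417451 bases.

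The CHR letters were found more often in the genes that fell. They stood in the window of 18 of 21 genes that fell (85.7%) and in 5 of 12 that rose or did not pass (41.7%), and in 18 of 19 (94.7%) against 5 of 12 where the window lay at the canonical start. CCAAT stood in 15 of 21 (71.4%) and 10 of 12 (83.3%). Among genes without CHR letters were NEK2, CCNB1, CDC25A, MYBL2, SPC24, PTTG1 and MAD1L1, which rose or did not pass, and CENPE, which fell. CENPI (-1.16) and AURKB (-0.22) also fell without them, in windows over 100 bases from the canonical start. Only TTTGAA and TTCGAA were searched, so a gene without these letters may carry another form of the element. CDC20, CDC25B and ESPL1 carried CHR letters and did not pass, as did NUSAP1 and PRC1, whose counts are uncertain. The 7 genes without a window were BIRC5, TTK, TPX2 and FOXM1, which fell, and AURKA, UBE2C and BUB3, which did not pass. The same split by call was not computed over all genes with a window. These counts are a description of 33 genes and no test was made of them.

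**Figure D4:**
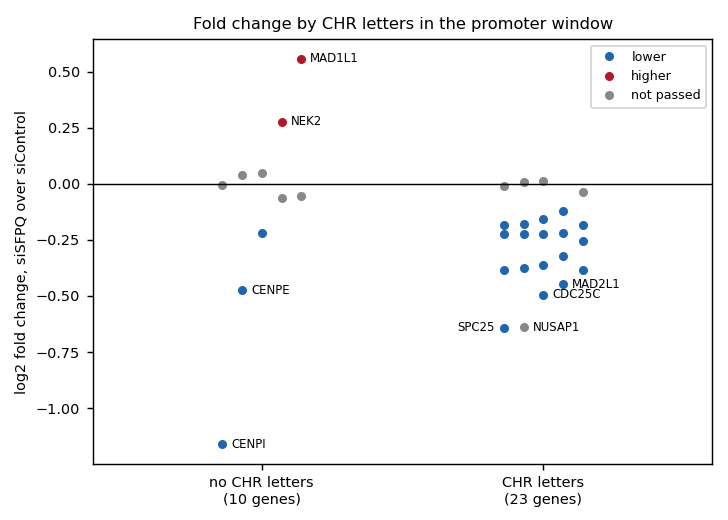
Log2 fold change (y axis, siSFPQ over siControl) of the 33 genes with a RefSeq promoter window, split by the presence of CHR letters (x axis), coloured by the test. Of the 23 genes with the letters 18 are blue, and both red points, NEK2 and MAD1L1, are among the 10 without them.

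Genes that work beside the 40 were read from 8 further lists, whose overlaps with other genes were not examined. They held 171 genes in all, of which 110 were lower (64.3%), 12 higher (7.02%) and 49 did not pass, with a median log2 fold change of -0.17. Over all genes tested 22.1% were lower and 22.4% higher, and over genes of at least 1 CPM 34.5% and 30.1%, which are the shares to hold beside each list. Against a fold of 1.2 (glmTreat) each list kept between 1 and 10 lower genes, where 13.3% of all genes tested were lower. No glmTreat share over genes of at least 1 CPM was computed. By that test 1 of 12 mitotic kinesins, 3 of 28 spindle pole genes and 10 of 25 G1/S genes were lower. Of 31 other centromere and kinetochore genes 23 fell and 2 rose, with a median of -0.23. The largest falls were CENPP at -1.75 (edgeR adjusted p = 1.6e-14) and SKA2 at -1.42 (edgeR adjusted p = 3.3e-24), a subunit of the SKA complex that tracks microtubule ends. CENPP, like CENPI a subunit of the inner kinetochore, had 352, 387 and 382 normalized counts in siControl and 122, 105 and 107 in siSFPQ. The rises were CENPT at 0.54 (edgeR adjusted p = 4.8e-09), which anchors the NDC80 complex, and SKA3 at 0.15 (edgeR adjusted p = 0.0092), the partner of SKA2. SKA3 no longer passed without siSFPQ replicate 2 (0.13), and the partners stood on opposite sides, with 6377, 6382 and 6265 normalized counts in siControl and 2336, 2492 and 2287 in siSFPQ for SKA2.

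The 19 subunits and activators of the anaphase-promoting complex had 7 lower (36.8%), 4 higher (21.1%) and 8 not passed, with a median of -0.061, where 34.5% of all genes of at least 1 CPM were lower and 30.1% higher. ANAPC13 at 0.28 (edgeR adjusted p = 3.5e-05) and ANAPC16 at 0.25 (edgeR adjusted p = 1.5e-06) rose most, and ANAPC10 at -0.65 (edgeR adjusted p = 0.0069) and the inhibitor FBXO5 (EMI1) at -0.52 (edgeR adjusted p = 2.3e-12) fell most. ANAPC10 was low, at 1.75 CPM, and no longer passed without siControl replicate 2 (-0.51) or siSFPQ replicate 1 (-0.54). Of 21 condensin and cohesin genes 14 fell, and 0 rose by edgeR or DESeq2, with 1 at an unadjusted p under 0.05 upward, and the median was -0.18. STAG1, a cohesin subunit, fell most, at -1.28 (edgeR adjusted p = 2.3e-21), with 4576, 5065 and 5011 normalized counts in siControl and 1961, 2146 and 1911 in siSFPQ, and NCAPG2, a condensin II subunit, was next at -0.51 (edgeR adjusted p = 8.8e-13).

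Of 28 spindle pole, augmin and gamma-tubulin genes 13 fell (46.4%) and 2 rose (7.14%), with a median of -0.11. By library size alone 6 were lower and 4 higher, and by glmTreat 3 and 0. NEDD1, which recruits gamma-tubulin to the spindle, fell most, at -1.15 (edgeR adjusted p = 1.2e-19), and HAUS1 of the augmin complex was at -0.42 (edgeR adjusted p = 1.1e-06), while HAUS5 of the same complex rose (0.18, edgeR adjusted p = 0.003), as did CEP192 (0.13, edgeR adjusted p = 0.0062), which no longer passed without siSFPQ replicate 2 (0.090). Among 12 mitotic kinesins 9 fell and 0 rose by edgeR or DESeq2, with 0 at an unadjusted p under 0.05 upward, with a median of -0.16, led by KIF14 at -0.35 (edgeR adjusted p = 3.2e-08) and KIF11 at -0.32 (edgeR adjusted p = 6.6e-09). Of 13 cytokinesis and abscission genes 8 fell and 2 rose, with a median of -0.15. SEPTIN9 was lowest at -1.51 (edgeR adjusted p = 9.7e-26), with 13539, 13943 and 14062 normalized counts in siControl and 4792, 5102 and 4712 in siSFPQ, then ARHGAP11A at -0.69 (edgeR adjusted p = 3e-16). CHMP4C, an ESCRT-III protein of the abscission checkpoint, rose (0.78, edgeR adjusted p = 1.5e-10), as did RACGAP1 (0.12, edgeR adjusted p = 0.0082).

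Of 22 other G2/M regulators 18 fell and 0 rose by edgeR or DESeq2, with 0 at an unadjusted p under 0.05 upward, with a median of -0.22. LIN52, a subunit of MuvB, was lowest, at -1.48 (edgeR adjusted p = 7.4e-21), with 1848, 1890.0 and 1887 normalized counts in siControl and 672, 694 and 647 in siSFPQ, and the kinase PBK was next at -0.90 (edgeR adjusted p = 1.3e-18). The G1/S genes were also lower: of 25 G1/S and replication genes 18 fell (72%) and 2 rose, with a median of -0.27. POLA1, the catalytic subunit of DNA polymerase alpha, fell most, at -1.85 (edgeR adjusted p = 2.4e-24), and RRM2 of ribonucleotide reductase was at -1.09 (edgeR adjusted p = 1.4e-22), while CDT1 (0.18, edgeR adjusted p = 0.00079) and RFC4 (0.11, edgeR adjusted p = 0.048) rose. RFC4 did not pass by DESeq2 (adjusted p = 0.070), without the count filter, or without siControl replicate 1 or 2 or siSFPQ replicate 2 or 3 (0.069 to 0.11). Several of the largest falls in the further lists were in long genes. These were STAG1 (416168 bases), POLA1 (303114), CENPP (294577), SEPTIN9 (220028) and LIN52 (116538). PBK (28459) and FBXO5 (13061) fell at shorter spans, and STAG2 (462453) and ANAPC1 (273052) did not pass. The part of gene span in the falls of these lists was not tested.

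**Figure D5:**
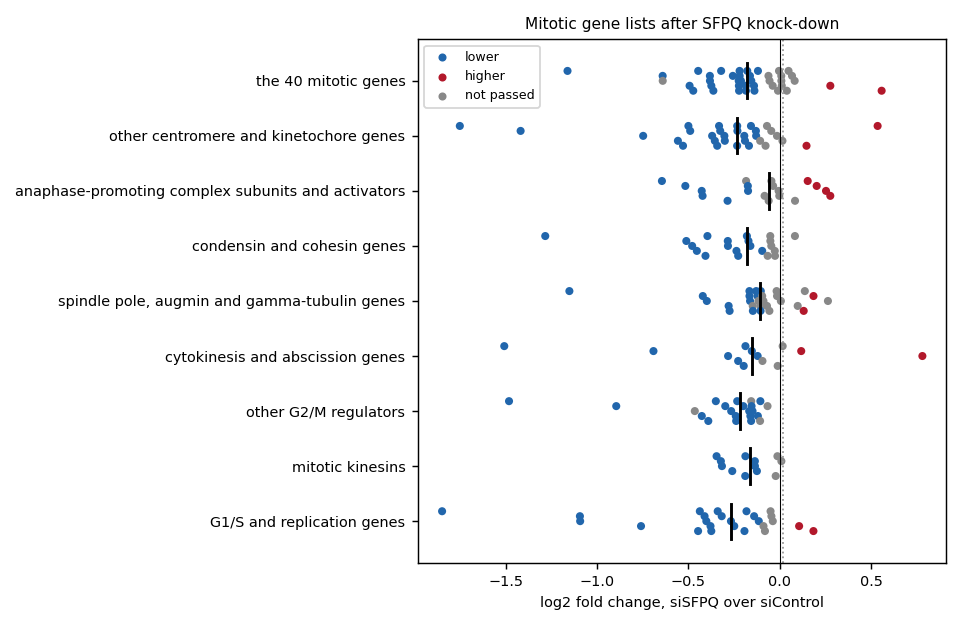
Log2 fold change (x axis, siSFPQ over siControl) of every tested gene of the 40 and of the 8 further lists (y axis), coloured by the test, with a black bar at each median and a dotted line at the median of all genes tested (0.019). Each list median lies to the left of the dotted line, and the lists reach -1.85 at POLA1 and 0.78 at CHMP4C.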

How the data were processed

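RNA-seq libraries of U-2 OS cells (3 siControl, 3 siSFPQ, 150 bp paired-end) were made as TruSeq stranded mRNA libraries. The authors aligned reads with STAR 2.7.9a to Ensembl GRCh38 and deposited raw counts per Ensembl gene. The strand setting of counting was not given in the sources used here. Groups and replicate numbers come from the labels, and 0 columns were left unused.

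Genes with at least 10 counts in total entered a quasi-likelihood test (edgeR 4.0.16, R 4.3.3, TMM scaling, no covariates, Benjamini-Hochberg over 29022 genes). A gene was called at an adjusted p under 0.05. Standard errors are the log2 fold change divided by the root of the F statistic, and intervals are 1.96 standard errors wide on each side. Normalized counts are counts over effective library size, multiplied by the geometric mean of the 6 effective sizes. The biological replicates are as stated by the study. Libraries of a group differed by more than sampling noise, so that none was counted as a duplicate. Symbols, spans and overlaps come from GENCODE 44, which held 60463 of the genes, and promoter windows from RefSeq. Ratios within libraries were compared by exact permutation tests, 2-sided. They were not among the planned tests and reuse the counts of the single genes.

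Alternatives were filterByExpr, no count filter, RLE factors, library size alone, DESeq2 1.42.0, a replicate block, protein-coding genes only, glmTreat and leaving out each library. The lists are the 40 genes in 9 roles, 8 lists of other cell cycle genes, osteoblast and osteosarcoma markers and markers of other cell types. The members and lists were chosen with earlier results of these data known. Values per library are given for the 6 largest falls and rises that passed, the CCNB, CDC25 and Aurora families, FOXM1 and MYBL2. From each list of other cell cycle genes the 2 largest rises and falls with at least 1 CPM are named. BUB3, CDC20, PTTG1, SPC24, NUSAP1 and the overlapping genes are given in more detail outside this rule. So are CENPP, SKA2, STAG1, SEPTIN9 and LIN52, all of which fell, with values per library. Genes of these lists that rose are not given in this way.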

Additional observations from a re-analysis of the deposited data

How the results depend on the processing

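Depth was 43469321 counts or more per library, and 3 libraries per group limit the smallest exact p to 0.1. The 25 falls kept their count within 21 to 25 under every alternative but glmTreat, and 21 of the 25 genes kept direction and call in all 13 alternatives run on single genes. For the values that changed, the cause was not tested, except that glmTreat asks for a larger fold by construction. Deviations of same-numbered libraries from their group means correlated weakly (r = -0.025, 0.070 and 0.036), and those of differently numbered libraries at -0.072 to 0.035. With 3 libraries per group, this check cannot exclude that same-numbered libraries were prepared together. With the replicate block 25 of the 40 genes were lower and 3 higher, and 1 condensin or cohesin gene was higher.

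By library size alone, 5 of the 40 genes were higher, the median log2 fold change was -0.12, 1 condensin or cohesin gene was higher, and 4 spindle pole genes were higher and 6 lower. CCNB1 (0.0072), CDC25A (0.059), MYBL2 (0.0013), ESPL1 (0.053) and PRC1 (0.023) turned sign there. By glmTreat 9 of the 40 were lower and 1 higher, where 13.3% of all genes tested were lower and 13.3% higher. A share over genes of at least 1 CPM was not computed for it. The same test left 4 lower and 0 higher of the anaphase-promoting complex, 6 lower condensin and cohesin genes, 2 lower and 1 higher in cytokinesis, 10 lower and 0 higher in G1/S, 1 lower kinesin, 8 lower and 1 higher of the other centromere genes, 5 lower of the other G2/M regulators, and 3 lower and 0 higher at the spindle pole. With filterByExpr 1 condensin or cohesin gene was higher and CDC25A was at 0.00060. With protein-coding genes only 1 condensin or cohesin and 4 spindle pole genes were higher, CDC25A was at 0.0066 and ESPL1 at 0.00067. Without a count filter 1 G1/S gene was higher, as with DESeq2, and BUB3 (-0.0016) and CDC20 (-0.0020) turned sign.

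Leaving out 1 library moved the median of the 40 genes between -0.20 and -0.15 (the latter without siSFPQ replicate 3), the lower genes between 24 and 25, the higher G1/S genes between 1 and 2 and the higher other centromere genes between 1 and 2. The log2 fold change ranged from -0.020 to 0.025 for CDC25A, from -0.0086 to 0.11 for SPC24, from -0.011 to 0.036 for CDC20, from -0.048 to 0.0099 for ESPL1 and from -0.12 to 0.11 for PRC1. With MAD1L1, NUSAP1 and PRC1 set aside, an alternative chosen after the data were seen, 1 gene was higher.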
